A study of Mus musculus with 2 samples.

Results

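The 10 genes described here encode proteins of the piRNA pathway and of germ plasm: Dazl, Ddx4, Mael, Tdrd1, Tdrd6, Tdrkh, Asz1, Piwil1, Piwil2 and Mov10l1. They were chosen by name, and their CpGs were those with at least 5 reads in both libraries, located between 2 kb upstream of the annotated 5′ end and the gene end. This rule gave 739 cytosines of CpGs out of 2654195 in the whole data set. The assay was reduced representation bisulfite sequencing (RRBS) of liver DNA, in which genomic DNA is cut with MspI at CCGG and bisulfite treatment turns unmethylated cytosines into thymines in the reads. Liver DNA came from 3-month-old male mice homozygous for the Uhrf1 YP187/188AA mutation (KI) and from WT littermates of the same C57BL/6 background. The DNA of 3 mice per genotype was pooled into 1 library. The mutation replaces 2 residues of the tandem Tudor domain of Uhrf1, through which the protein binds histone H3 methylated at lysine 9, and it was made in 129/SV-derived embryonic stem cells before breeding to C57BL/6. One label of the KI sample calls its genotype a knock out, against its title, and CpG methylation cannot check the mutation itself.

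Piwi-interacting RNAs (piRNAs) are small RNAs of the germ line that guide PIWI proteins to transposon transcripts and direct their silencing. The proteins that make and carry piRNAs gather in granules of germ cells, held together in part by Tudor domain proteins that bind methylated arginines of PIWI proteins. In liver and other somatic tissues many genes of this kind are silent, and their CpG-rich promoters are often methylated. Uhrf1 binds hemimethylated CpGs after replication and recruits Dnmt1, which copies methylation onto the new strand.

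Coverage summed over CpG cytosines was 173109895 in the KI library and 192144002 in the WT library, where a read counts once per CpG it covers. The median coverage of a shared CpG was 37 in both libraries. Over all shared CpGs the mean methylation level was 42.6% in KI and 45.6% in WT, a difference of -2.99 points. With 1 pooled library per genotype there was no spread between animals. Every test below therefore compares the reads of those libraries, not the genotypes, and errors and intervals cover counting error only. Reads of 1 MspI fragment also share their DNA molecules, so neighbouring CpGs are not independent.

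The sequences below carry the main results at the promoters of 6 genes. Each is the mm9 reference sequence on the strand of its gene, written 5′ to 3′, with CpGs read at least 5 times in both libraries in capitals.

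Mael, chr1:168168876-168169075, minus strand, upstream of the 5′ end, where all 11 measured CpGs were lower in KI:
Mael: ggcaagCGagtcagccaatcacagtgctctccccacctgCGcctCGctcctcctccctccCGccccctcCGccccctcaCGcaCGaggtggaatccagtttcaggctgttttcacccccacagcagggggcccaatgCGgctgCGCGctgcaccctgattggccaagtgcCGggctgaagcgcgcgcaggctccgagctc

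Piwil2, chr14:70829002-70829231, minus strand, upstream of the 5′ end, within the promoter called lower:
Piwil2: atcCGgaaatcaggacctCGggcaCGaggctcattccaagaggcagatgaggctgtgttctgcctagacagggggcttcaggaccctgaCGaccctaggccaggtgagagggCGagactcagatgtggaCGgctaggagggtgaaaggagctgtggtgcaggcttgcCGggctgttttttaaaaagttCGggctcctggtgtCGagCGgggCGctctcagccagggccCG

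Ddx4, chr13:113442549-113442718, minus strand, upstream of the 5′ end, which held nearly all measured CpGs of the gene:
Ddx4: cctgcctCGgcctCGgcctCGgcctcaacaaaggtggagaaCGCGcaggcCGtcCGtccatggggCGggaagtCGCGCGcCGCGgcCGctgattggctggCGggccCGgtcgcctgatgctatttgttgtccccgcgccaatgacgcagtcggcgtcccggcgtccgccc

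Tdrd6, chr17:43767484-43767703, minus strand, upstream of the 5′ end, the methylated side of its promoter:
Tdrd6: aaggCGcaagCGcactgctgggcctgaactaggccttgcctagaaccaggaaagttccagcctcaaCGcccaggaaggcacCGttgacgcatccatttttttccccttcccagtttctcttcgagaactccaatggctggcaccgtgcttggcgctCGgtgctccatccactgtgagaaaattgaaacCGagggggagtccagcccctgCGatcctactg

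Dazl, chr17:50432295-50432544, minus strand, in intron sequence downstream of the 5′ end, where methylation stopped:
Dazl: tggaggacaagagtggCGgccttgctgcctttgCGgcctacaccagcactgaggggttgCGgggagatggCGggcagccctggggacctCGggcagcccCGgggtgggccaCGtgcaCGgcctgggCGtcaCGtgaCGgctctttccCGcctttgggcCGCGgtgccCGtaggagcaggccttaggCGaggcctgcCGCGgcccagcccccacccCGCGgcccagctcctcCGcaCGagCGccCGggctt

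Asz1, chr6:18059062-18059166, minus strand, upstream of the 5′ end, where levels were high and mixed in direction:
Asz1: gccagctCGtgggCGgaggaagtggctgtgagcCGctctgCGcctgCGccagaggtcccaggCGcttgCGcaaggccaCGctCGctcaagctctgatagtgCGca

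Over the 739 CpGs of the 10 genes the mean level was 56.2% in KI and 60.2% in WT, a difference of -4.0 points with a counting error of 0.31. Relative to the WT level this was -6.64%, beside -6.55% over all shared CpGs. The level was lower in KI at 418 CpGs, higher at 229 and equal at 92. Lower CpGs made up 56.6% of those of the 10 genes and 45.9% of all shared CpGs. The CpGs of these genes were more often methylated to begin with, since 57.1% of them were over 70% in WT, against 43.7% of all shared CpGs. Within that class the 422 CpGs of the 10 genes had 83.6% in KI and 89.3% in WT, and the difference of -5.74 points lay beside -6.05 points for all shared CpGs of the class. At the 118 CpGs with 20% to 70% in WT the levels were 48.3% in KI and 51.9% in WT. At the 199 CpGs under 20% in WT they were 2.87% in KI and 3.39% in WT, a difference of -0.52 points, whereas all shared CpGs of that class differed by 0.27 points. In the class over 70% in WT, which held most of their CpGs, the difference of the 10 genes was thus no wider than that of all shared CpGs.

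Gene regions were called where 2 tests on reads, a Fisher exact test of the region's total reads and a stratified (Cochran-Mantel-Haenszel) test with each CpG as a stratum, both gave an adjusted p under 0.05 in the same direction. By this rule 8 of the 10 gene regions were lower in KI and none was higher. Of all 21305 gene regions tested, 30.8% were called lower and 1.27% higher. Among the gene regions over 50% in WT, 7 of the 8 here were called lower, against 47.5% of all 7405. The same rule called 4 of the 9 measured promoters lower, those of Mael, Piwil2, Ddx4 and Tdrd6, and none higher, where a promoter was the 5′ end with 1 kb on either side. Of all 16516 promoters, 7.53% were called lower and 1.33% higher. Promoters of the 10 genes were unusual in their WT level, since 6 of 9 were over 50% in WT, against 14.9% of all promoters. Of those 6 promoters 3 were called lower, beside 23.2% of all promoters over 50% in WT.

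These counts rest on many CpGs per DNA fragment. With 1 CpG per MspI fragment and strand, the rule called 2 of the 10 gene regions lower (Mov10l1 and Tdrd6), with 19.5% called over all gene regions. It called none of the 9 promoters, with 2.19% called over all promoters. At the Piwil2 promoter 5 CpGs were then left, with 69.2% in KI and 81.5% in WT, and an adjusted p of 0.00577 in the stratified test and of 0.652 in the Fisher exact test.

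**Figure D1:**
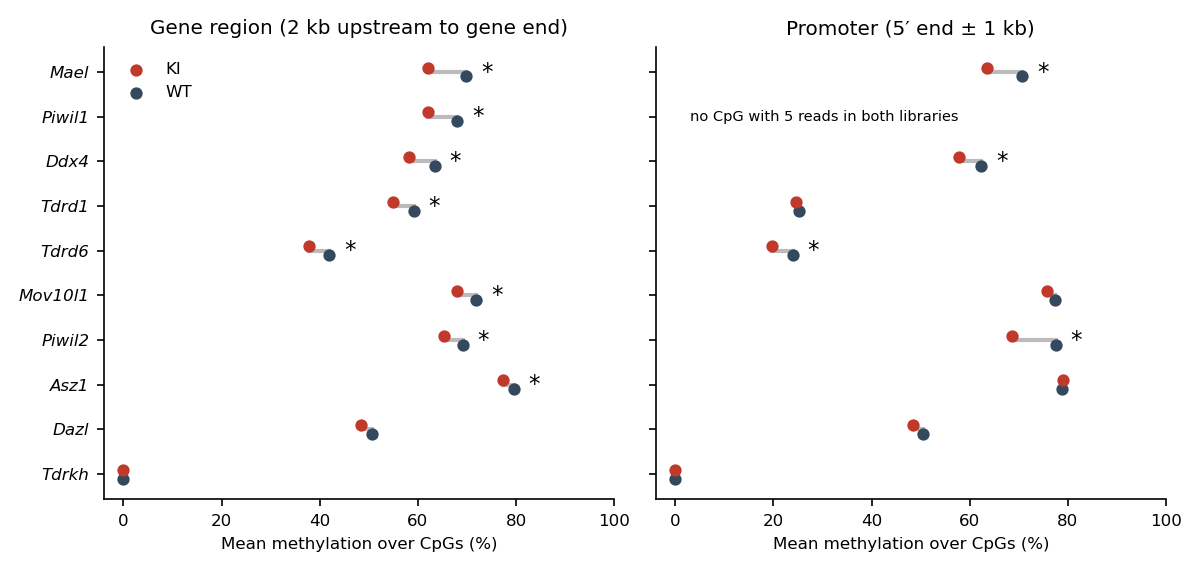
Mean methylation (%) over the CpGs of each gene region (left) and promoter (right) in the KI library (red) and the WT library (dark), with no error bars since each genotype had 1 pooled library. An asterisk marks a region called lower in KI by both tests, which holds for 8 gene regions and 4 promoters, and the Tdrkh points lie at 0 in both libraries.

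The PIWI proteins are the Argonautes that carry piRNAs. Piwil2 (MILI), on chr14:70772287-70828901, had 68.6% in KI and 77.6% in WT over the 32 CpGs of its promoter. The difference of -8.97 points had a counting error of 1.51, and the adjusted p was 4.81e-08 in the Fisher exact test and 1.89e-14 in the stratified test. Of the promoters over 50% in WT, 15.1% had a difference this far below 0 or further. The difference lay at the promoter, since the 45 CpGs outside the promoter had 63.0% in KI and 63.1% in WT. The size of the promoter difference depended on which CpGs carried the weight, and it was -4.48 points with at least 20 reads per CpG and -5.88 points with weighting by reads, where the Mael promoter had -9.46 and -8.82 points. The whole region of Piwil2 differed by -3.78 points, and by -2.09 points with at least 20 reads per CpG. In the printed Piwil2 sequence 7 CpGs were deeply read. Those 312, 306 and 241 bp upstream of the 5′ end had 75.2%, 67.3% and 44.5% in KI, against 84.7%, 82.5% and 56.1% in WT, from 416 to 418 reads each in KI and 557 to 561 in WT. Those 218 and 201 bp upstream differed less, with 88.3% and 81.7% in KI, against 90.9% and 84.4% in WT. Of the deeply read CpGs inside CCGG sites, that 327 bp upstream had 55.7% in KI and 64.5% in WT, and that 163 bp upstream went the other way, with 21.2% in KI and 16.6% in WT. Levels inside CCGG sites can reflect the fill-in of fragment ends. The fragment that spans the 5′ end differed more, at 76.8% in KI and 92.3% in WT over 10 CpGs, but from few reads: the printed CpGs of it had 14 reads in KI, and 20 or 21 in WT.

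Piwil1 (MIWI), on chr5:129242121-129261349, acts later in spermatogenesis than Piwil2. None of its promoter CpGs reached 5 reads in both libraries, so its promoter was not measured. Inside the gene 46 CpGs had 62.0% in KI and 68.0% in WT, and the region was called lower (difference -6.01 points, counting error 1.73, Fisher exact adjusted p = 2.55e-06). Exon CpGs of Piwil1 had 67.0% in KI and 73.7% in WT over 33 CpGs. Of those 46 CpGs, 30 were lower and 12 higher in KI. The direction turned with 1 CpG per fragment and strand, when 6 CpGs gave a difference of 0.81 points.

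Mov10l1 and Mael act on piRNA production and transposon silencing. Mov10l1, on chr15:88813339-88885582, is an RNA helicase that binds PIWI proteins and piRNA precursors. Its promoter had 75.8% in KI and 77.4% in WT over 25 CpGs, a difference of -1.60 points with a counting error of 1.68 that neither test called. Outside the promoter 66 CpGs had 64.9% in KI and 69.9% in WT, and the whole region was called lower with an adjusted p of 1.19e-13 in the Fisher exact test. The region's difference of -4.03 points was -2.58 points with strands summed and -6.61 points by reads. The fragment of Mov10l1 with the largest difference in counting errors lay 49892 to 49985 bp downstream in an intron, with 88.8% in KI and 94.8% in WT (difference -5.98 points, counting error 1.10).

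Mael (maelstrom), on chr1:168131516-168168875, is needed for transposon silencing in the male germ line, and nearly all of its measured CpGs lay at the promoter. The promoter had 63.4% in KI and 70.8% in WT over 78 CpGs, a difference of -7.32 points with a counting error of 1.09. It was called lower, with an adjusted p of 1.61e-11 in the Fisher exact test and 9.20e-13 in the stratified test. All 3 promoter fragments of Mael with 3 or more CpGs were lower by more than 2 counting errors. They had 57.4%, 66.3% and 74.4% in KI, in order of distance, against 68.1%, 74.9% and 81.8% in WT. Within the printed Mael sequence the levels were uneven from one CpG to the next. The CpG 161 bp upstream had 59.3% in KI and 88.6% in WT, while the CpG 131 bp upstream had 56.2% in KI and 56.9% in WT. Near the 5′ end, the CpGs 63 and 57 bp upstream had 48.1% and 38.9% in KI, against 71.0% and 67.1% in WT. Each of these CpGs had 46 to 54 reads in KI and 58 to 70 in WT, so single differences are loosely fixed. All 11 pointed down, but all except that in the CCGG site lie in 1 fragment and share its DNA molecules. Their directions are therefore not independent.

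Tdrd1, Tdrd6 and Tdrkh carry Tudor domains and bind PIWI proteins, and their promoters were the least methylated of those measured. Tdrd6, on chr17:43752284-43767248, is a component of the chromatoid body of spermatids. Its promoter had 19.78% in KI and 23.96% in WT over 63 CpGs, and it was called lower (difference -4.18 points, counting error 1.01, Fisher exact adjusted p = 1.03e-10, stratified 0.00399). Methylation of Tdrd6 fell with distance along the promoter in both libraries. The fragment 451 to 245 bp upstream had 61.2% in KI and 73.0% in WT, the next, up to 25 bp upstream, had 12.8% in KI and 15.1% in WT, and the one after the 5′ end had 2.02% in KI and 3.03% in WT. The difference lay mostly in the methylated fragment, at -11.8 points with a counting error of 3.26, whereas the other fragments differed by less than 2 counting errors. In the printed Tdrd6 sequence the first CpGs, 451 and 445 bp upstream, were near full methylation, with 97.3% and 91.7% in KI, against 94.9% and 96.6% in WT. Closer to the 5′ end, the CpGs 267 and 246 bp upstream had 25.7% and 37.8% in KI, against 37.9% and 57.6% in WT. This promoter call was lost with at least 20 reads per CpG (-2.93 points, larger Fisher exact or stratified adjusted p = 0.085) and with coverage thinned to that of the shallower library (-4.75 points, p = 0.0957 likewise), and the difference was -9.80 points with weighting by reads. The body of Tdrd6 was methylated, and its 52 CpGs outside the promoter had 59.8% in KI and 63.7% in WT. Over the whole region Tdrd6 had 37.9% in KI and 41.9% in WT and was called lower in every alternative that was run, with -7.22 points by reads.

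Tdrd1, on chr19:56900699-56944502, anchors PIWI proteins in the granules between mitochondria. Its promoter had 24.6% in KI and 25.2% in WT over 19 CpGs, with a counting error of 2.98 on the difference, and was not called. The sign of that difference turned with the coverage minimum and with weighting by reads. Outside the promoter 59 CpGs of Tdrd1 had 64.7% in KI and 70.02% in WT, and the whole region was called lower (difference -4.15 points, counting error 1.04, Fisher exact adjusted p = 1.94e-05). Part of this came from CpGs inside CCGG sites, whose level can reflect the fill-in of fragment ends. Without them the CpGs outside the Tdrd1 promoter had 82.1% in KI and 84.9% in WT, a difference of -2.85 points with a counting error of 1.40. Over the whole region of Tdrd1 the difference was then -2.56 points, and with strands summed it was -2.75 points.

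Tdrkh, on chr3:94217218-94236555, takes part in trimming piRNAs at mitochondria. It was the exception among the 10 genes, with 0 methylated of 178 reads in KI and 0 of 102 in WT over 18 promoter CpGs. All 18 CpGs came from 1 MspI fragment, so its molecules were counted once per CpG, and the most-read CpG had 11 reads in KI and 8 in WT. A count of 0 there allows a level of up to 27.3% in KI and 37.5% in WT (3 reads of that total), and no CpG in the rest of the gene was read 5 times in both libraries.

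Asz1, on chr6:18000964-18059061, is a scaffold of germ granules at mitochondria and had the highest WT level of the 9 promoters. That promoter kept 78.9% in KI and 78.8% in WT over 30 CpGs, a difference of 0.12 points with a counting error of 1.61. In the printed Asz1 sequence 6 CpGs were higher, 3 lower and 1 equal in KI. The CpG 65 bp upstream had 95.3% in KI and 85.2% in WT, and the CpG 4 bp upstream had 85.7% in KI and 94.3% in WT, from 42 or 43 reads in KI, and 53 or 54 in WT. Outside the promoter, the 46 other CpGs of Asz1, all intronic, had 76.2% in KI and 80.0% in WT. The fragment 45626 to 45724 bp downstream had 88.6% in KI and 93.4% in WT, a difference beyond 3 counting errors, and the whole region was called lower (difference -2.27 points, Fisher exact adjusted p = 0.000952). The size of that difference was loosely fixed, at -0.76 points with strands summed, -1.22 points without CCGG sites and -3.85 points with at least 20 reads per CpG. The Asz1 promoter difference was -2.44 points with at least 20 reads per CpG and -2.20 points by reads. It was 1.71 points without CCGG sites and 1.38 points with strands summed. In the main setting Asz1 and Piwil2 were opposite in layout, the first with its difference in the gene body and the second at its promoter. That contrast between the genes was not tested.

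Ddx4 and Dazl are the classical germ plasm genes of this set. Ddx4 (mouse vasa homologue), on chr13:113388541-113442518, is a DEAD-box helicase of germ granules. Its promoter had 57.8% in KI and 62.4% in WT over 34 CpGs, and was called lower (difference -4.60 points, counting error 1.09, Fisher exact adjusted p = 0.00353). Of the 16 measured CpGs in the printed Ddx4 sequence, 11 were lower and 5 higher in KI, from 154 to 156 reads in KI and 252 to 255 in WT. The wider differences sat in the middle of that sequence. The CpGs 157, 146 and 135 bp upstream had 52.9%, 57.1% and 61.5% in KI, against 68.6%, 74.5% and 73.0% in WT. Toward its downstream end the order turned, and the CpG 100 bp upstream had 69.9% in KI and 62.4% in WT. The Ddx4 call rests on 1 fragment. With 1 CpG per fragment and strand, only the cytosines of the CpG 100 bp upstream remained, 1 per strand. Their difference was 7.42 points, in the other direction, with a counting error of 4.74, and it was not called.

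Dazl, on chr17:50418719-50432924, encodes an RNA-binding protein that regulates translation in germ cells, and had the most measured CpGs of the 10 genes, 123, all at the promoter. The promoter had 48.5% in KI and 50.6% in WT, a difference of -2.09 points with a counting error of 0.55. This mean hid a step. Across the 5′ end, the fragment 17 bp upstream to 96 bp downstream had 90.9% in KI and 93.2% in WT. The fragments starting 121 and 242 bp downstream had 83.9% and 86.5% in KI, against 83.7% and 82.2% in WT. All 10 cytosines, counting both strands of each CpG, were lower in the fragment 396 to 470 bp downstream. It had 60.2% in KI and 76.7% in WT (difference -16.4 points, counting error 2.38). The next, 491 to 620 bp downstream, had 2.04% in KI and 3.90% in WT, and the last had 0% in both. The difference at Dazl thus lay mainly in the fragment at the edge of the methylated stretch.

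In the printed Dazl sequence this edge can be followed CpG by CpG. The CpGs 396, 413, 439, 450 and 469 bp downstream had 75.7%, 61.3%, 85.6%, 64.5% and 13.5% in KI, against 88.2%, 89.2%, 92.5%, 83.7% and 28.0% in WT. The next CpG, in the CCGG site 479 bp downstream, had 9.79% in KI and 7.66% in WT, and no CpG after it was over 8.43% in KI or 11.9% in WT. Over the 24 CpGs of the sequence 17 were lower, 6 higher and 1 equal in KI. The tests of Dazl disagreed. The stratified test called it lower (adjusted p = 1.54e-07) and the Fisher exact test on summed reads called it higher (adjusted p = 0.00884), with a read-weighted difference of 3.05 points, so Dazl was not called. With coverage thinned to that of the shallower library at each CpG, both tests called it lower (-2.08 points, larger Fisher exact or stratified adjusted p = 0.0186). Its unmethylated fragment 491 to 620 bp downstream took 27.7% of the coverage of Dazl CpGs outside CCGG sites in KI and 39.6% in WT.

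**Figure D2:**
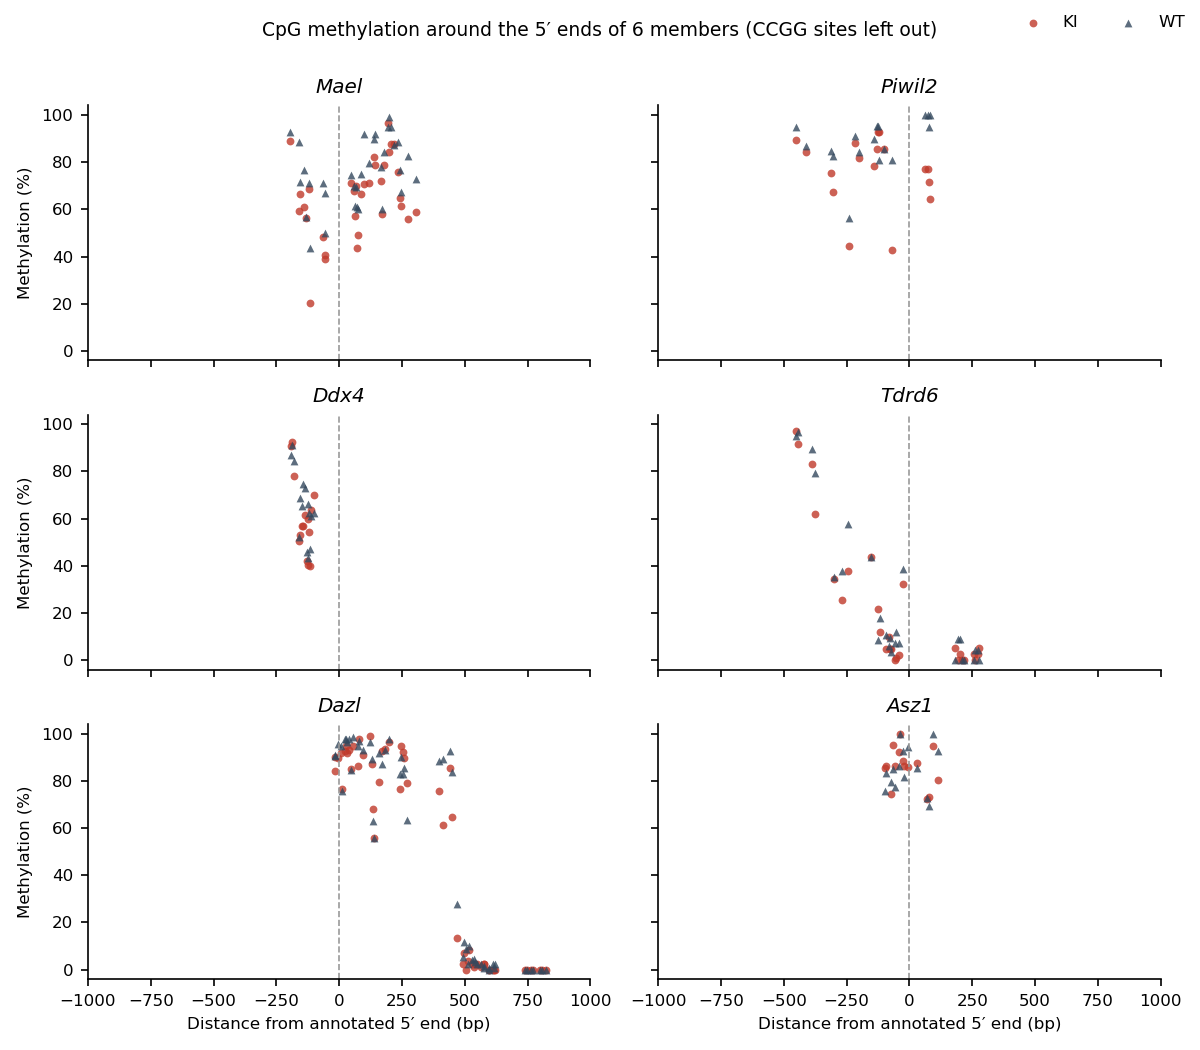
Methylation (%) of single CpGs, reads of both strands summed, by distance in bp from the annotated 5′ end (dashed line) for 6 genes, with KI as red circles and WT as dark triangles and CpGs inside CCGG sites left out. In Dazl the levels drop between 450 and 491 bp downstream in both libraries, in Tdrd6 they drop across the upstream promoter, and in Mael most red circles lie under the triangles.

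Of 44 MspI fragments with at least 3 CpG cytosines outside CCGG sites, 32 were lower in KI, 10 higher and 2 equal, with a median difference of -3.62 points. Over all 169336 such fragments 68.8% were lower, with a median of -2.43 points. Lower by more than 2 counting errors were 19 of the 44, against 32.9% of all fragments, and none was higher by that much, against 3.37%. Among fragments over 50% in WT, 18 of 38 were lower by this measure, beside 42.7% of all fragments of that class. The 19 fragments were 3 each of Dazl, Mael, Piwil2 and Tdrd6, 2 each of Mov10l1 and Piwil1, and 1 each of Asz1, Ddx4 and Tdrd1. Of these 19 fragments 11 lay at promoters and 8 outside. Split by annotation, promoter CpGs of the 10 genes had 49.9% in KI and 53.6% in WT over 422 CpGs. Exon CpGs outside promoters had 64.1% in KI and 68.2% in WT over 118, and intron CpGs 64.8% in KI and 69.3% in WT over 198.

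**Figure D3:**
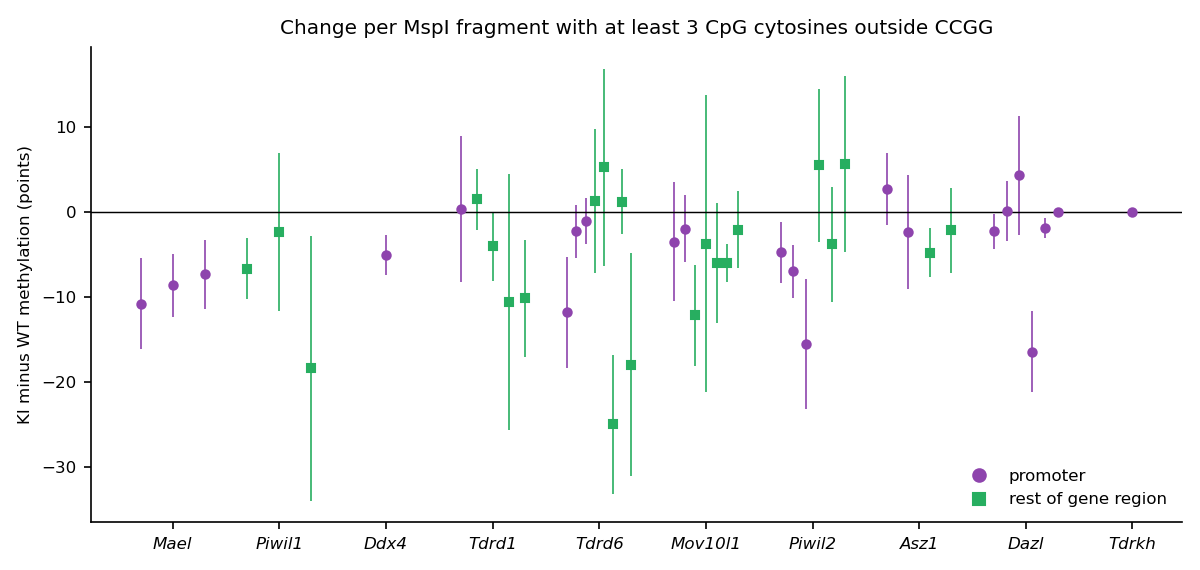
KI minus WT methylation (points) of each MspI fragment with at least 3 CpG cytosines outside CCGG sites, by gene and in order of distance from the 5′ end, with promoter fragments as circles and others as squares and bars of 2 counting errors. The median fragment lies at -3.62 points, and the widest drops are in Tdrd6, Piwil1, Dazl and Piwil2.

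Single CpGs were called where the Fisher exact test gave an adjusted p under 0.05 and the levels differed by over 25 points. Of the 739 CpGs 6 were called lower in KI and none higher, where 1.09% of all shared CpGs were called lower and 0.0474% higher. At an unadjusted p under 0.05, 84 were lower and 4 higher, where 9.05% of all shared CpGs were lower and 1.18% higher. Those 6 CpGs were in 5 genes, and each is given with the reads behind it. The lines show 32 bases around each, on the strand of its gene, with the called CpG in capitals. In Tdrd1 and in the Tdrd6 intron the called cytosine is the one on the opposite strand.

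Dazl CpG, chr17:50432495-50432526, minus strand: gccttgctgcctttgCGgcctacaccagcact
Mael CpG, chr1:168169020-168169051, minus strand: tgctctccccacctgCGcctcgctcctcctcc
Tdrd1 CpG, chr19:56928723-56928754, plus strand: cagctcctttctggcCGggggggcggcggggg
Tdrd6 intron CpG, chr17:43760991-43761022, minus strand: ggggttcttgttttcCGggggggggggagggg
Tdrd6 exon CpG, chr17:43763546-43763577, minus strand: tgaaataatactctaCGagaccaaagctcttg
Mov10l1 CpG, chr15:88851603-88851634, plus strand: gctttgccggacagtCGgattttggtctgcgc

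The Tdrd6 exon CpG, 3686 bp downstream of the 5′ end, had the widest difference of the 6. It was methylated in 11 of 42 reads in KI (26.2%, 95% Wilson interval 15.3% to 41.1%) and in 34 of 36 reads in WT (94.4%, interval 81.9% to 98.5%). Its adjusted p was 1.52e-07 in the Fisher exact test. The other 2 CpGs of the fragment had 87.8% in KI and 91.2% in WT, so the difference was at 1 CpG. On the other strand it had 0 methylated of 1 read in KI and 1 of 1 in WT. A cytosine replaced by thymine in the DNA reads as unmethylated in this assay, which was not tested. The Dazl CpG, 413 bp downstream, had 41 of 75 reads methylated in KI (54.7%) and 61 of 70 in WT (87.1%), and its other strand went the same way, with 75.0% in KI and 95.7% in WT. The Mael CpG, 161 bp upstream, had 23 of 37 reads in KI (62.2%) and 44 of 47 in WT (93.6%), with 52.9% in KI and 78.3% in WT on the other strand, and its call was lost with thinned coverage (Fisher exact adjusted p = 0.0574).

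The other called CpGs had less support. The Mov10l1 CpG, in an exon, had 17 of 28 reads in KI (60.7%) and 22 of 22 in WT, but on the other strand it had 84.6% in KI and 88.0% in WT. The Tdrd1 CpG (45.7% in KI and 87.7% in WT) and the Tdrd6 intron CpG (41.4% in KI and 72.4% in WT) lay in CCGG sites beside a run of G. On the other strand of the Tdrd1 site methylation was 1.19% in KI and 0.72% in WT, and on that of the Tdrd6 site 0 in both, so the strands of these sites did not give 1 level. With the strands of each CpG summed, these 3 calls were lost. In that setting 5 CpGs were called lower, of which 2 of Mael were added. The first, whose plus-strand cytosine lies 273 bp downstream of the 5′ end, had 32 of 57 reads methylated in KI and 76 of 92 in WT, and the other, 57 bp upstream in the printed Mael sequence, had 21 of 54 in KI and 47 of 70 in WT. A CpG of Tdrd1 105 bp downstream of the 5′ end was then called higher, with 15 of 29 reads in KI and 8 of 46 in WT. The noise between strands bears on all single CpGs of these genes. At 228 CpGs read on both strands outside CCGG sites, the strands differed by a median of 5.98 points in KI and 5.70 in WT. The median size of the difference between KI and WT was 5.88 points. Both strands were lower in KI at 87 of these CpGs and both higher at 21.

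Dazl and Tdrd6 lie on chromosome 17, as does Uhrf1 (chr17:56442744-56462909), 6.01 and 12.7 Mb away. Within 1 Mb of Dazl, 15 of 1136 CpGs that KI covered 20 times or more were unread in WT (1.32%), and within 1 Mb of Tdrd6 it was 15 of 1205 (1.24%). Around the other 8 genes no CpG was of this kind, and over the autosomes and X the share was 0.0896%. The reverse, 20 or more WT reads and none in KI, was not seen around any of the 10 genes. A sequence difference between the strains around Uhrf1 was not tested. Dazl and Tdrd6 held 123 and 115 of the 739 CpGs. Without them, 3 CpGs, 3 promoters and 7 of the 8 gene regions of the other genes were called lower. Called lower over the whole data set were 1.09% of shared CpGs, 7.53% of promoters and 30.8% of gene regions. The mean difference of the other genes was -4.46 points.

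Motifs were searched in the mm9 sequence 250 bp upstream to 49 bp downstream of each 5′ end. The E-box CACGTG, a palindrome that reads alike on both strands, was found in 5 of the 10 genes (Ddx4, Mael, Tdrd1, Piwil1 and Mov10l1), against 7.78% of 22380 protein-coding genes. The E2F core TCCCGC, sought on both strands and overlapping no E-box, was found in 3 of 10 (Ddx4, Mael and Tdrd6), against 24.4%. CpG density had a median of 57.5 per kb in the 10 genes and 40 in all, so motifs that contain a CpG are not on an equal footing between these sets. None of the E-box CpGs had 5 reads in both libraries. The CpG in the upstream E2F core of Mael, 140 bp upstream in the printed sequence, had 60.9% in KI and 76.6% in WT. That of Ddx4 had 61.5% in KI and 73.0% in WT, and that of Tdrd6 had 43.9% in both. Mael had another E2F core, 11 bp downstream of the 5′ end, whose CpG was not among the shared CpGs. Downstream in Dazl, beyond the edge of methylation, the printed sequence held 2 E-boxes and 1 E2F core. The E-box CpGs had 2.41% and 3.61% in KI, against 5.47% and 2.34% in WT, and the E2F core CpG had 2.47% in KI and 4.10% in WT.

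The same measure was taken at promoters of related genes. Of 20 other piRNA pathway genes 14 were measured, 7 were over 50% in WT, 4 were called lower and none higher, with a median difference of -2.24 points, where 7.53% of all promoters were called lower and 23.2% of those over 50% in WT. With 1 CpG per MspI fragment and strand, a setting that called 2.19% of all promoters lower, 1 promoter of this list was called lower. The called genes were Fkbp6, a co-chaperone that acts on PIWI proteins (74.7% in KI and 81.7% in WT), Gpat2, a mitochondrial outer membrane protein (46.7% in KI and 55.8% in WT), Henmt1, which methylates the ends of piRNAs (48.3% in KI and 54.0% in WT), and Tex15, a factor of piRNA-directed methylation (24.2% in KI and 26.4% in WT). By contrast, Tdrd5, Pld6 and Mybl1 were under 3% in both libraries, so membership of the pathway did not go with methylation at every promoter. Of 16 other germ cell RNA-binding genes 12 were measured and 2 were called lower, none higher, and 0 were called lower with 1 CpG per fragment and strand. These were Boll, a relative of Dazl (23.5% in KI and 30.1% in WT), and Rbm46 (9.86% in KI and 14.4% in WT), while Nanos1 and Ythdc2 were under 1% in both. Of 18 paralogs and partners that somatic cells use, 16 were measured and all were under 10% in WT, with none called. Ago2, the somatic relative of the PIWI proteins, had 0.15% in KI and 0.12% in WT, and Ddx5, Ddx6 and Tdrd3 were under 1% in both libraries. Median WT levels were 62.4% for the 9 measured promoters described above and 40.2%, 3.40% and 0.15% for the lists in this order.

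**Figure D4:**
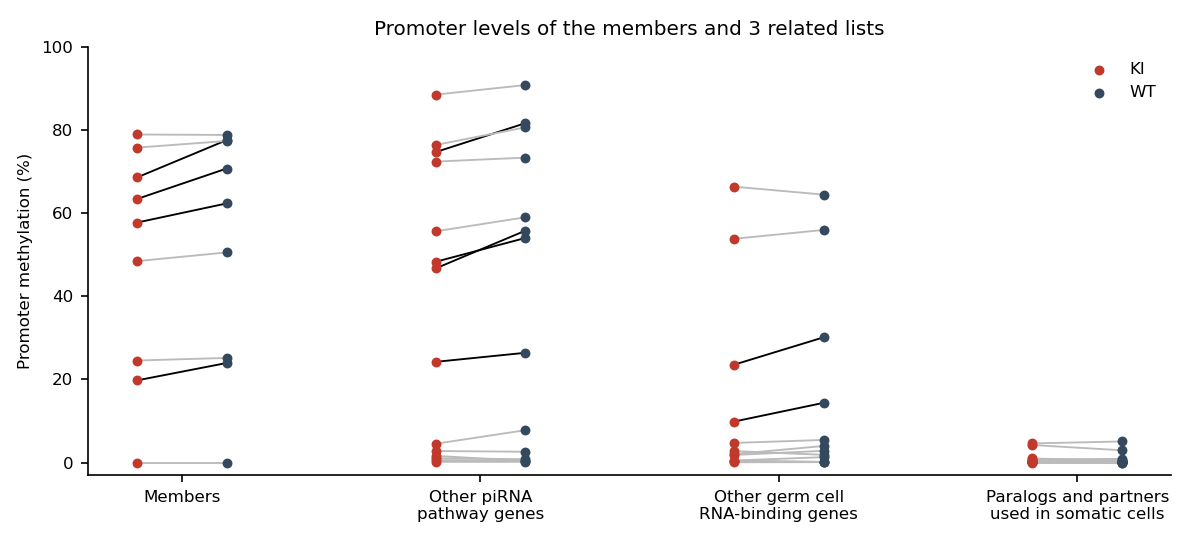
Promoter methylation (%) of measured genes in the KI library (red, left of each pair) and the WT library (dark, right) for the 10 germline genes (members) and 3 related lists, each line joining 1 gene and black lines marking promoters called lower. The somatic paralogs and partners all lie under 10%, while the members reach 78.9% in KI and 78.8% in WT.

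RRBS of whole liver mixes cell types, and a change in cell make-up cannot be told apart from a change within cells. Few promoters of cell type markers were measured. Of 10 hepatocyte genes 3 were measured, of which Fgb (26.0% in KI and 39.6% in WT) and Hnf4a (45.2% in KI and 56.7% in WT) were called lower. Of 7 blood and Kupffer cell genes 3 were measured, of which Cd3e was called lower (48.5% in KI and 65.3% in WT). Of all promoters 7.53% were called lower, and of those over 50% in WT 23.2%. With 1 CpG per MspI fragment and strand, the calls of Fgb and Hnf4a were lost and that of Cd3e stayed. In that setting 2.19% of all promoters were called lower. Measured endothelial genes numbered 2 of 4 and stellate cell genes 4 of 4, and none was called. Their part in the results of the germline genes was not tested.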

How the data were processed

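RRBS libraries of 3 pooled livers per genotype were analysed, 1 for KI and 1 for WT. Per the submitters' processing notes, Bismark aligned the reads to mm9, and the authors kept unique alignments. Trimming and handling of duplicates are not given in the sources used here. Each deposited row gives a CpG cytosine with its read count (coverage) and, as a deposited percent, the reads left as C after conversion. Methylated reads were taken as coverage times percent, rounded to whole reads, and all gave back the deposited percent within 0.005 points. For the strain, the labels have C57BL/6 and the paper prints C57BL/C.

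The libraries were joined by position, and a coverage of 5 or more was required in each. Levels are means over CpGs, each with the same weight, and counting errors come from the binomial variance of reads. Fisher exact and Cochran-Mantel-Haenszel tests (two-sided, Python 3.11.15, numpy 2.4.6, scipy 1.17.1, numba 0.67.0) were run over all CpGs, all promoters and all gene regions of mm9 GENCODE with at least 5 shared CpGs, pseudogenes left out, with Benjamini-Hochberg adjustment over each whole table. Both tests were tested on simulated data in which the reads of each CpG were drawn independently. The simulation therefore does not cover CpGs that share the molecules of a fragment. Cytosines on both strands of a CpG were counted separately unless stated.

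The 10 genes and all lists were chosen with earlier results of these data known. All 10 genes are named, of each list every called gene and the 4 measured genes with the most CpGs, and up to 3 called CpGs per gene. Symbols unmatched in the annotation were matched through RefSeq synonyms. Sequences come from the mm9 genome. Alternatives were coverage minimums of 10 and 20, CCGG sites left out, strands summed, thinned coverage, each test alone, 1 CpG per MspI fragment and strand, promoters of 500 bp on either side, weighting by reads, a chi-square test and, chosen after seeing the data, chromosome 17 left out and equal weight per gene.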

Additional observations from a re-analysis of the deposited data

How the results depend on the processing

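No paired analysis was possible because each genotype had 1 library, and no replicate could be left out. The mean difference of -4.0 points over the 739 CpGs lay between -3.79 and -4.46 points under the other alternatives, and was -4.87 points with weighting by reads. Of the 78 other values of counts and of this mean, 69 stayed close to the main value. Many of these were counts of 0 that stayed 0, which says little about stability. A close count also does not mean that the same CpGs were called, as with strands summed. With 1 CpG per MspI fragment and strand, 0 promoters and 2 gene regions were called lower. The related lists had 1 called promoter (other piRNA genes) and 0 (other germ cell RNA-binding genes). Over all promoters 2.19% were called lower in this setting, and over all gene regions 19.5%. This setting keeps fewer reads per region, and whether that alone lowers the counts was not tested. The Fisher exact test alone called 1 promoter and 1 gene region higher, both Dazl. Summed strands called 1 CpG higher. Without chromosome 17, 3 CpGs were called lower, where 1.09% of all shared CpGs were called lower in the main setting. Called values reversed for Ddx4 and Piwil1 with 1 CpG per fragment and strand. Ddx4 was 7.42 points (counting error 4.74) for promoter and region, from both strands of 1 CpG. Piwil1 was 0.81 points (counting error 5.91) for the region, while the same CpGs gave -4.72 points by reads. Dazl was 3.05 points for promoter and region by reads and in the Fisher exact test alone. Uncalled promoters near 0 also turned: Asz1 was -2.44 points at 20 reads, -2.20 points by reads and in the Fisher test alone, and -1.46 points with 1 CpG per fragment. Mov10l1 was 0.61 points with 1 CpG per fragment. Tdrd1 was 4.53 points at 10 reads, 3.92 points at 20 reads, 1.39 points with strands summed and 0.90 points by reads and in the Fisher test alone. The cause of these reversals was not tested.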
